A study of Mus musculus with 16 samples.

Results

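The cells described here are the LSK cells with the largest share of their transcripts in 12 genes of DNA replication licensing and early S phase. LSK cells, defined by the absence of lineage markers and the presence of Sca1 and Kit, include the stem cells of the blood and the multipotent progenitors that descend from them. The 12 genes were Pcna, Mcm2, Mcm3, Mcm4, Mcm5, Mcm6, Mcm7, Ung, Dtl, Chek1, Cdc6 and Gins2. All kept cells were ranked by the percentage of their molecules (unique molecular identifiers, UMIs) that came from these genes, and the top 10% were taken. This gave 384 licensing-high cells among 3840 kept cells. The 1920 cells in the bottom 50% of the same ranking served for comparison and are called low-licensing cells.

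The cells came from the bone marrow of lethally irradiated CD45.1/CD45.2 mice that had received a 1:1 mixture of fetal liver cells, and all were sorted 4 weeks after transplantation. The mixture held control cells (CD45.1) and cells that lacked both Regnase-1 and Regnase-3 (CD45.2, Regnase-1-/-Regnase-3-/-), 2 related RNases that degrade mRNAs of immune genes. The strain was C57BL/6J. All 16 libraries, each a plate of 384 wells read by MARS-seq, a method that counts UMIs at mRNA 3' ends, fall in 1 group by their labels, and no genotype is given for a library or a well in the sources used here. A licensing-high cell may therefore be of either donor or a remaining host cell, the number of mice is not given, and no genotype comparison was made.

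Before S phase, the MCM2 to MCM7 proteins form the ring-shaped helicase that is loaded on origins of replication with the help of CDC6, a step called licensing. At the start of S phase the GINS complex and others join the helicase, and PCNA then clamps the polymerases to DNA. Many of these genes are targets of the E2F transcription factors, whose activity rises when a cell passes from G1 into S phase. LSK cells hold both quiescent stem cells, which rarely divide, and multipotent progenitors, which cycle often.

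Kept cells per library numbered 194 to 291, with median UMIs per cell of 1652.5 to 2250. In the licensing-high cells of a library, 1 UMI corresponded to 13.4 to 42.0 UMIs per 1000000 (CPM), and 0 UMIs allow a level of up to 40.3 to 126 CPM, from counting error alone. In low-licensing cells, 0 UMIs allow up to 8.08 to 14.8 CPM. The libraries were not alike in every transcript. Nfkbiz, a known Regnase-1 target, had 0 to 4 UMIs per library in replicates 1 to 8 and 11 to 31 in replicates 9 to 16, over all kept cells. The part of that difference in the values below was not tested, but each comparison set classes of the same library against each other.

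The LSK label was checked against markers. In licensing-high cells Kit, the stem cell factor receptor, stood at a median of 147 CPM over the libraries (lowest 42.2, highest 336), and Ly6a, which encodes Sca1, at 204 CPM (122 to 503). A UMI of Kit was found in 26.6% of licensing-high and 31.1% of low-licensing cells, and one of Ly6a in 29.9% and 30.3%. Genes with 0 UMIs in the 384 cells, which allows a share of up to 0.781% of cells with a UMI, were 4 of 7 mature B cell markers, 9 of 13 T and NK, 6 of 13 neutrophil and macrophage, 3 of 8 erythroid and platelet, 5 of 8 mast cell and basophil, 3 of 10 dendritic and 6 of 9 endothelial and stromal markers. Among those at 0 were the T cell genes Cd3d, Cd3e and Cd3g. Other markers were present in both classes at similar shares. The B cell gene Cd79b had a UMI in 7.81% of licensing-high and 6.98% of low-licensing cells, and the dendritic markers H2-Aa, Bst2 and Cd74 in 17.7%, 16.7% and 11.98% against 16.7%, 17.8% and 13.1%. Pecam1, an endothelial and stem cell gene, had a UMI in 10.9% and 11.5% of cells and the mast cell gene Cpa3 in 4.95% and 4.38%. Hbb-bt, a beta-globin gene, had a UMI in 18.0% of licensing-high and 14.6% of low-licensing cells, and its level was not called different (log2 fold change 0.35 ± 0.19, standard error, adjusted p = 0.194). Pf4, a platelet gene, had a UMI in 6.77% and 4.79% of cells. Trbc1, a T cell receptor constant gene, had 18 UMIs in 4 licensing-high cells and 15 in 7 low-licensing cells.

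The choice rested on few molecules per cell. The licensing share of members ran from 0.387% to 1.34% with a median of 0.464%, against 0% to 0.145% with a median of 0.0622% in low-licensing cells. A member held 4 to 39 UMIs of the 12 genes (median 10), from 2 to 12 of the genes (median 5). The last member inside the threshold held 4 such UMIs of 1034 (0.387%), and the first cell outside held 11 of 2845 (0.387%), so the class is a range of a continuous score and not a separate cell type. Pcna was the leading gene in 129 members and Mcm6 in 78, while 73 had a tie. Pcna was without a UMI in 44 members, and 10 had neither Pcna nor Mcm6.

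The helicase subunits and the clamp set the class, as the ranking required, and the values that follow describe the choice and are not tests. Pcna stood at 763 CPM in the lowest library, 1306 in the median and 1629 in the highest among licensing-high cells. In low-licensing cells Pcna stood at 94.1, 152 and 223 CPM. Mcm6 stood at 804, 987 and 1153 CPM against 95.2, 121 and 177 CPM, so neither gene's library ranges overlapped between the classes. The other well-detected subunits had median levels of 505 CPM for Mcm3, 509 for Mcm5, 373 for Mcm2 and 353 for Mcm4 in licensing-high cells. Their low-licensing medians were 89.5, 68.8, 51.4 and 47.1 CPM in the same order. Dtl, which directs the destruction of the licensing factor CDT1 on replicating DNA, had a median of 239 CPM (155 to 400) against 27.0 CPM (8.32 to 39.8).

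**Figure D1:**
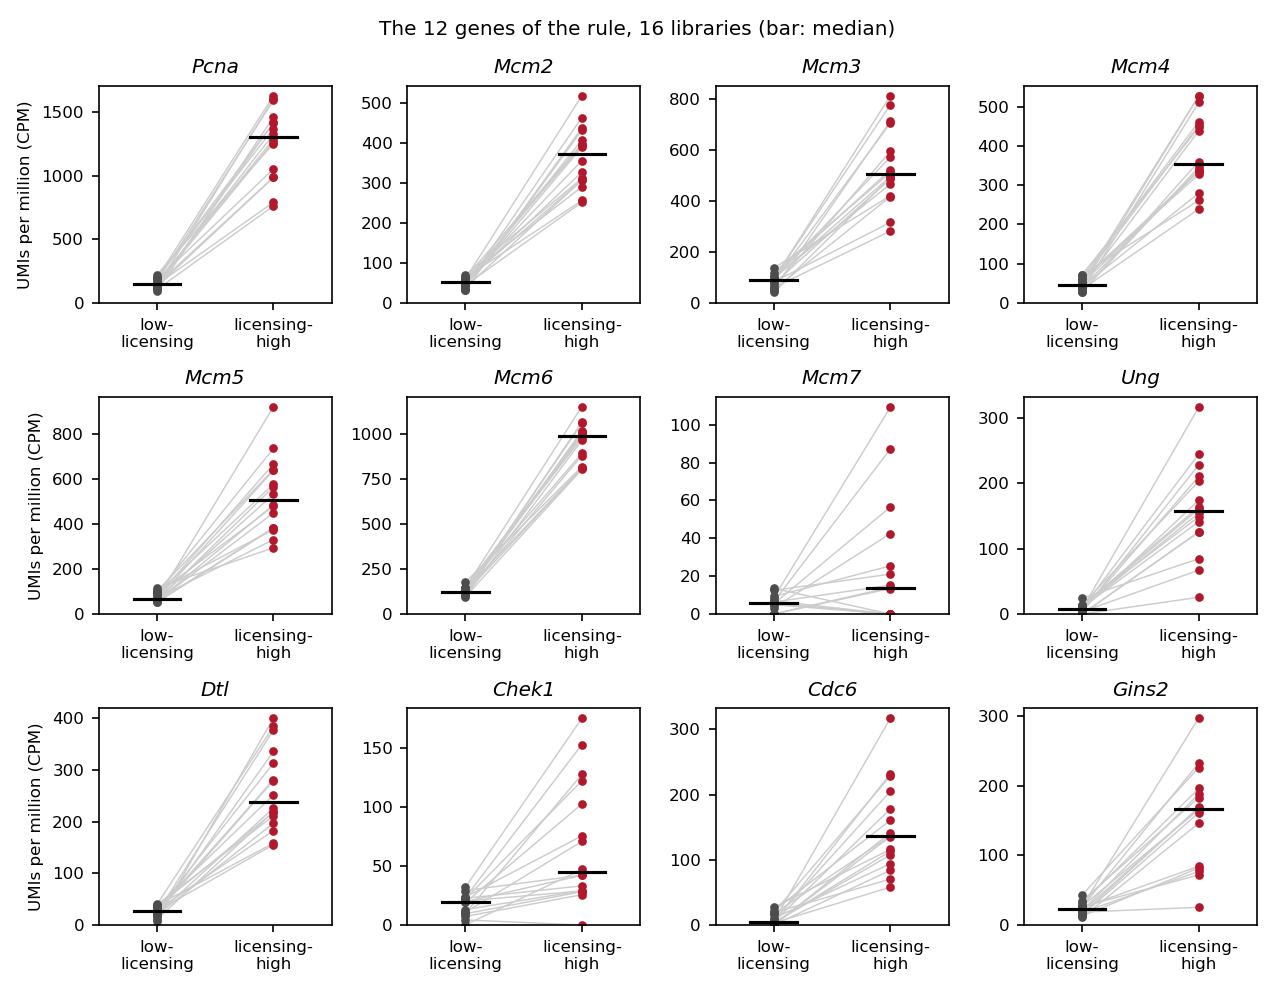
Each panel plots 1 of the 12 genes in UMIs per 1000000 (vertical axis, linear from 0), with 1 point per library and class, a line joining the classes of the same library and a bar at the median of 16 libraries. Pcna, Mcm2 to Mcm6, Ung, Dtl and Cdc6 have library ranges that do not overlap; Mcm7, Chek1 and Gins2 overlap.

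Ung, a uracil-DNA glycosylase, and Cdc6 had the largest pooled ratios. Ung had a median of 158 CPM (25.6 to 317) in licensing-high cells against 8.28 CPM (0 to 24.2), and Cdc6 136 CPM (58.1 to 317) against 5.22 CPM (0 to 27.0). Gins2, a GINS subunit, had 167 CPM (25.4 to 297) against 22.8 CPM (10.9 to 43.1). Chek1, the kinase that stabilises stalled forks, had 44.6 CPM (0 to 175) against 19.4 CPM (0 to 32.0). Mcm7 was nearly unread, with 19 UMIs in all licensing-high cells and 24 in low-licensing cells. Mir25, a microRNA gene at chromosome 5, 138165321 to 138165404, lies inside Mcm7 (138164583 to 138172422) on the same minus strand, and its entry held 371 and 739 UMIs. Whether these tags come from the Mcm7 transcript or from the microRNA's own precursor cannot be told apart in these counts.

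Levels read from the UMIs that chose the cells overstate the difference. When the UMIs of every cell were split at random into 2 sets, with cells ranked on one and levels read from the other, the pooled ratio of Pcna was 11.5 in the ranking set and 3.26 in the unseen set. Mcm6 went from 11.8 to 3.16 and Mcm3 from 8.77 to 2.69. Ung and Cdc6 kept the largest unseen ratios, 7.42 and 7.07, on 56 and 52 UMIs in the top cells. Chek1 stood at 1.58 on 18 UMIs. These are values of 1 random split, with no test.

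Each of the 12 genes was also measured in cells ranked on the other 11, so that its own counts played no part in the choice. Of the 12, 7 passed the filter on low counts, and all 7 were higher in the top 10% than in the bottom 50% (edgeR quasi-likelihood test with the library as a block, p-values adjusted over all genes tested). Pcna was higher by 1.38 ± 0.09 on the log2 scale (adjusted p = 2.95e-23), in 16 of 16 libraries, and Mcm6 by 1.52 ± 0.10 (adjusted p = 1.11e-22), also in 16 of 16. Mcm4 was higher by 1.58, Mcm2 by 1.43, Mcm5 by 1.23, Mcm3 by 1.19 and Dtl by 1.68, each in at least 15 of 16 libraries. In a separate fit without the filter, Ung (2.12), Cdc6 (1.89) and Gins2 (0.98) were called as well. Mcm7 (0.56, adjusted p = 0.773) and Chek1 (-0.11, adjusted p = 0.870) were not called. Values from the fit without the filter were lower for all 7 genes in both fits, Pcna being at 1.08 and Mcm6 at 1.21 there, so they are not on the scale of the filtered ones.

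The promoters of these genes were read for E2F sites because E2F drives much of the licensing programme. The words TTTCCCGC, TTTCGCGC, TTTGCCGC and TTTGGCGC were searched on both strands in the 250 bases before the start of each gene in RefSeq (GRCm38.p6). Of the 12 genes, 10 had a promoter in that table, and 5 of the 10 held a word: Mcm5, Mcm6, Mcm7, Dtl and Cdc6. Over all 27025 genes with a promoter, 2.16% held one before any of their starts. 4 of the promoters are given 5' to 3' on the gene's strand with the words in capitals, to show how they are placed, followed by that of Pcna, which held none. In Mcm5 and in Mcm6 words on opposite strands overlap; Mcm6 holds another word nearer the start, at 47 bases before it, and in Dtl the word ends at the start itself. Hells, a chromatin remodeller described below, is the called gene outside the 12 that is shown. It was picked because it held a word: Rrm2, Lig1, Rpa1 and Dut, called higher and read in the same way, held none. RefSeq starts can differ from the gene coordinates given elsewhere here, which are those of GENCODE. By the GENCODE coordinates the Hells and Pcna windows reach into the gene, and the Hells word lies inside it. The windows are Mcm5 chr8:75109259-75109508 (plus strand), Mcm6 chr1:128359706-128359955 (minus), Dtl chr1:191575545-191575794 (minus), Hells chr19:38930740-38930989 (plus) and Pcna chr2:132253181-132253430 (minus).
Mcm5: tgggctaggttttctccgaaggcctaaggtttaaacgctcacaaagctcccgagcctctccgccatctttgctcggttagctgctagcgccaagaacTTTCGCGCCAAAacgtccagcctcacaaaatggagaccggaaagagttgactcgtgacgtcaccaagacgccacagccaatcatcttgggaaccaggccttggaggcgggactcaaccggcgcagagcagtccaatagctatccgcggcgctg
Mcm6: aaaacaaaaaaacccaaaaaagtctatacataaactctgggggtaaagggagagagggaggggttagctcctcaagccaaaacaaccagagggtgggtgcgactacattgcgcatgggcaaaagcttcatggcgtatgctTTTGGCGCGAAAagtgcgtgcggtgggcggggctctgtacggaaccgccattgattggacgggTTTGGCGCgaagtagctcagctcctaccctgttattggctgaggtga
Dtl: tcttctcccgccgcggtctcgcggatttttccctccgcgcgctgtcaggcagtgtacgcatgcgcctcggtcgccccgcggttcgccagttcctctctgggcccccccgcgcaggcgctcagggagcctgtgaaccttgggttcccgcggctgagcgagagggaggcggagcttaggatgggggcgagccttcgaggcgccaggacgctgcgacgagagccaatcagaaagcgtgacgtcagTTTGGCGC
Hells: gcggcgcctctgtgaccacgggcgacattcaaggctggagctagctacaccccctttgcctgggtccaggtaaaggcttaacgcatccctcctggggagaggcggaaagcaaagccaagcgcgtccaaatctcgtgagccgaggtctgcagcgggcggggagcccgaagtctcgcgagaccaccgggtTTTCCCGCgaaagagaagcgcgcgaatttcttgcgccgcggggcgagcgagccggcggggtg
Pcna: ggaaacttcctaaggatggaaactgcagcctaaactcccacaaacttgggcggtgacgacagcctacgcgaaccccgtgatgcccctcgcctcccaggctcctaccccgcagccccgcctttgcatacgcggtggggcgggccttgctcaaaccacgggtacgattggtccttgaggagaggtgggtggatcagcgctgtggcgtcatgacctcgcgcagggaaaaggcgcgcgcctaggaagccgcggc

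Among the 2251 genes tested outside the 12, 1543 had a promoter and 5.70% of these held an E2F word. The share was 10.9% (20 of 183) for genes higher in licensing-high cells and 4.58% (6 of 131) for genes lower in them. The CHR word TTTGAA, known from promoters of mitotic genes, stood in 12.02% of the former and 27.5% of the latter. It stood in 14.2% of the tested genes with a promoter and in 18.3% of all genes with one. A word is only a run of letters and does not show that a factor binds there.

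Licensing-high cells occurred in every library, and their share was not tested between libraries. These cells made up 6.41% to 14.05% of the kept cells of a library, with a median of 10.1%, or 13 to 34 cells. In sequencing batch SB341 they were 222 of 2136 cells (10.4%, 95% Wilson interval 9.17% to 11.8%), and in batch SB343 136 of 1435 (9.48%, 8.07% to 11.1%). Library 1, for which no batch is listed, had 26 of 269 (9.67%). Replicates 1 to 8, low in Nfkbiz, spanned 6.70% to 11.9%, and replicates 9 to 16 spanned 6.41% to 14.05%, so the share did not separate those libraries. Intervals cover counting error only.

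**Figure D2:**
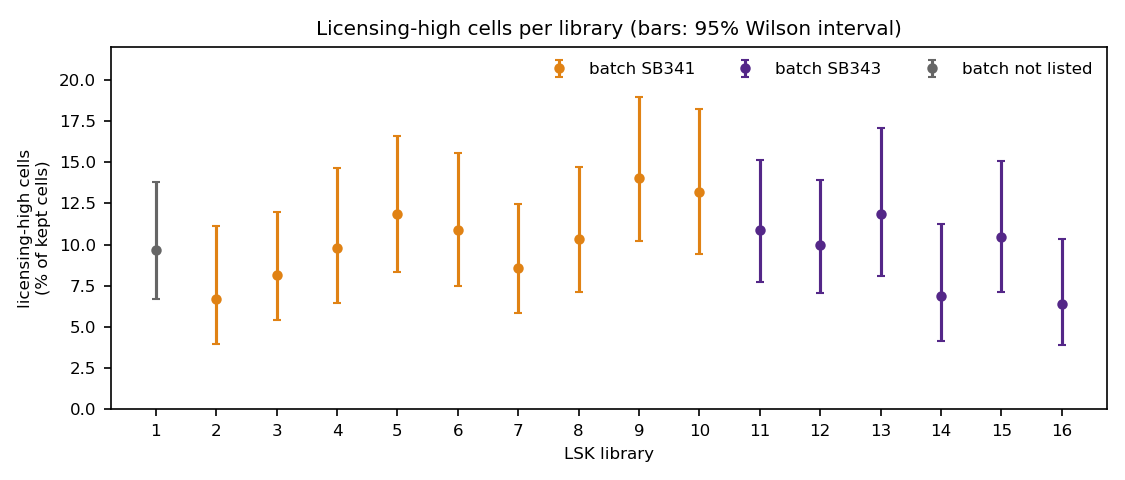
Licensing-high cells as a percentage of kept cells (vertical axis) in each of the 16 libraries (horizontal axis), coloured by sequencing batch, with 95% Wilson intervals. The shares run from 6.41% to 14.05%, and the intervals of neighbouring libraries overlap across both batches.

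Few licensing-high cells were also among the cells richest in mitotic transcripts, and no such difference was seen for cells rich in histone mRNA. Histone-high cells were the top 10% by share of replication-dependent histone transcripts, which accumulate in S phase, and mitotic-high cells the top 10% by share of 73 mitotic genes; both are ranges of a transcript score and not measured cycle phases. Of the 384 licensing-high cells, 3 were also mitotic-high (0.781%, Wilson interval 0.266% to 2.27%), against 313 of the 1920 low-licensing cells (16.3%). The percentage was lower in licensing-high cells in 16 of 16 libraries (median 0% against 16.7%, exact paired permutation test, two-sided, adjusted p = 7.63e-05 over 5 measures, the smallest raw p being 3.05e-05). In turn, 81.5% of all mitotic-high cells were low-licensing. Histone-high cells made up 8.85% of licensing-high cells (34 cells) and 8.49% of low-licensing cells, a difference within the spread between libraries (exact paired permutation test, adjusted p = 0.932). The low-licensing group thus held most of the mitotic-high cells, and comparisons are also given against its 1493 cells that were neither histone-high nor mitotic-high.

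Depth was not called different, while gene number and mitochondrial share were. Median UMIs per cell were 1962 in licensing-high and 1772 in low-licensing cells, at the median library, higher in 6 libraries and lower in 10 (exact permutation, adjusted p = 0.165). Thinned to 1000 UMIs, licensing-high cells showed 636.5 genes against 612.5, higher in 15 of 16 libraries (exact permutation, adjusted p = 0.000102). The 12 genes were counted among these. Before thinning a median of 5 of them had a UMI in licensing-high and 1 in low-licensing cells, so part of the difference follows from the ranking. The mitochondrially encoded share was 9.02% against 10.8% and lower in 16 of 16 libraries (exact permutation, adjusted p = 7.63e-05). Of 16 tested mitochondrial genes, 4 were lower and 0 higher, the ribosomal RNA gene mt-Rnr1 by -0.40 ± 0.04 (log2, adjusted p = 2.44e-13) and mt-Rnr2 by -0.33 ± 0.04 among them, while mt-Cytb (-0.01) and mt-Nd1 (0.07) were not called.

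Licensing-high cells differed from low-licensing cells in many genes outside the 12. Library sums of each class were compared for 2251 genes: 246 (10.9%) were higher and 194 (8.62%) lower, with a median log2 fold change of -0.01. Cells were classed by their own transcripts, so genes that vary with the 12 differ because of the choice, and the p-values overstate the evidence to an extent not known here. The error they use is the spread between libraries, and libraries may share mice. Leaving histone-high and mitotic-high cells out of the low-licensing group, 180 of 1613 genes (11.2%) were higher and 165 (10.2%) lower. Of the 207 higher genes tested both ways, 169 were called in both and 207 kept their sign.

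Other replication genes that could be tested were mostly higher. A gene with few UMIs in low-licensing cells could pass the filter through its licensing-high sums, so counts of tested genes do not describe whole lists; Gmnn, Rrm2 and Hells, for example, were not tested once histone-high and mitotic-high cells were left out. In the list of origin licensing and firing, 3 of 3 tested genes were higher: Gmnn (0.98 ± 0.21), whose protein geminin blocks relicensing, Mcmbp (0.83 ± 0.18), an MCM chaperone, and Topbp1 (0.60 ± 0.17), which acts in origin firing. The other members of that list of 25 were too low to test. In the replication fork list 11 of 19 tested genes were higher and 0 lower, with a median log2 fold change of 0.70 against -0.01 for all genes. Lig1, the ligase that joins Okazaki fragments (chromosome 7, 13277283 to 13311433), stood at 144, 260 and 378 CPM in the lowest, median and highest library, against 37.5, 71.3 and 112 CPM. Its library ranges did not overlap, and the log2 difference was 1.86 ± 0.17 (adjusted p = 2.64e-17). Tipin (1.23), a fork protection factor, Rpa1 (1.22) and Rpa2 (1.16), which coat single-stranded DNA, Prim1 (1.19), a primase subunit, and Fen1 (1.15), the flap nuclease, were higher too. Ssrp1 of the histone chaperone FACT (0.23, adjusted p = 0.220) and Top1 (-0.40, adjusted p = 0.0549) were not called.

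Enzymes that supply nucleotides were higher in most cases. Of 16 tested genes of the nucleotide supply list, 11 were higher and 0 lower, with a median of 0.72. The list also holds Tmpo, not a nucleotide enzyme, which was not called (-0.05, adjusted p = 0.794). Rrm2, the S phase subunit of ribonucleotide reductase (chromosome 12, 24708241 to 24714146), stood at 42.2, 200 and 336 CPM against 14.5, 42.1 and 74.2 CPM. It had 184 UMIs in the 384 licensing-high cells and the same number in the 1920 low-licensing cells, and differed by 2.25 ± 0.20 (adjusted p = 5.19e-18) in 16 of 16 libraries. The ranges overlapped only through the lowest licensing-high library. Dut, a dUTPase that keeps uracil out of DNA, had ranges of 348 to 712 CPM and 167 to 306 CPM, which did not overlap (1.20 ± 0.10, adjusted p = 6.59e-19). Mthfd1 (1.28), a folate enzyme, and the purine enzyme Paics (0.66) were higher as well, as was Dctpp1 (1.17), a dCTP pyrophosphatase outside the list. Shmt2 (0.38, adjusted p = 0.165) was not called.

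**Figure D3:**
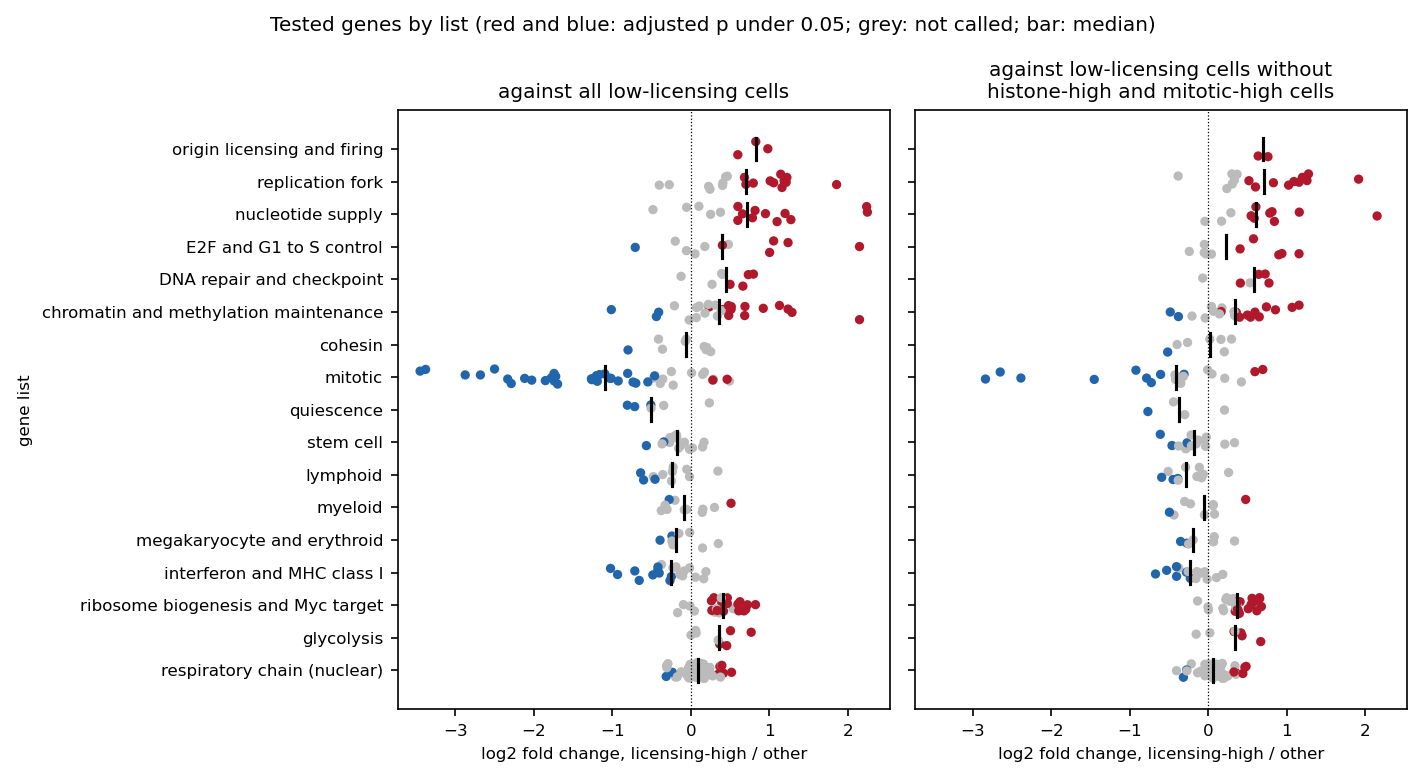
Each point is 1 tested gene, placed by its log2 fold change (horizontal axis) in the row of its gene list, against all low-licensing cells (left) and against those without histone-high and mitotic-high cells (right). Red and blue points had an adjusted p under 0.05, grey ones did not, and the bar is the list's median; mitotic genes had a median of -1.09 on the left and -0.41 on the right.

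E2F-linked and chromatin genes followed in part. Of 11 tested genes of E2F and G1 to S control, 5 were higher and 1 lower (median 0.40). Hells, a remodeller needed for DNA methylation (chromosome 19, 38930915 to 38971051), stood at 42.0, 186 and 331 CPM against 23.3, 41.0 and 81.1 CPM (2.151 ± 0.20, adjusted p = 2.30e-16). Nasp (1.24), a histone chaperone, Cdca7 (1.06), a partner of Hells, and Tfdp1 (1.00), the dimerisation partner of E2F, were higher. The D-type cyclin gene Ccnd2 (0.05, adjusted p = 0.794) and Cdk6 (-0.06, adjusted p = 0.706), which act earlier in G1, were not called. Among 26 tested genes of chromatin and methylation maintenance, 13 were higher and 3 lower (median 0.36), Atad2 (1.29) being higher. H2afx, a histone variant gene, was lower by -1.01 ± 0.13. In the DNA repair list 4 of 8 tested genes were higher and 0 lower: Apex1 (0.80), Msh6 (0.73), Usp1 (0.66) and Parp1 (0.50). Slfn9, on no list, was among the 15 highest genes, at 54.6 to 280 CPM against 19.5 to 51.7 CPM (2.10 ± 0.22).

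Mitotic genes showed the opposite pattern. Of 41 tested, 29 were lower and 2 higher, with a median log2 fold change of -1.09. A gene with few UMIs in licensing-high cells could pass the filter through its low-licensing sums. Counts and medians of tested genes therefore do not describe whole lists, here or for the lists below. Cenpf, Hmmr and Ccnb1, for example, were not tested once histone-high and mitotic-high cells were left out. Cenpa, the centromeric histone (chromosome 5, 30666777 to 30674830), stood at 0, 18.2 and 116 CPM in licensing-high cells and at 133, 266 and 347 CPM in low-licensing cells. The ranges did not overlap and the log2 difference was -3.45 ± 0.22 (adjusted p = 1.45e-26), fitted with licensing-high sums of 0 UMIs in 4 libraries. Ube2c, which charges ubiquitin for the anaphase-promoting complex, had 0 to 81.9 CPM against 232 to 718 CPM (-3.38 ± 0.17). Ccnb2, cyclin B2, had 0 to 145 CPM against 175 to 357 CPM (-2.88 ± 0.21). Others were lower in the same way: Cenpf (-2.68), Hmmr (-2.50), Cdc20 (-2.33), Ccnb1 (-2.29), Nusap1 (-2.12), Tpx2 (-1.85), Prc1 (-1.78), Cdca3 (-1.74), Kif11 (-1.74) and Ckap5 (-1.72), which serve the spindle, the kinetochore or entry into mitosis. Tuba1c (-2.03), a tubulin with near-identical relatives, and the linker histone gene H1f0 (-1.97) were lower too.

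The contrast was smaller, over the fewer genes that could be tested, when histone-high and mitotic-high cells were left out of the low-licensing group. There 9 of 19 tested mitotic genes were lower and 2 higher, and the median was -0.41. Cenpa was then lower by -2.84, Ube2c by -2.65, Ccnb2 by -2.39 and Arl6ip1 by -0.92, all called. Of the most abundant mitotic genes that were not called, Smc2, a condensin subunit, stood at -0.25 (adjusted p = 0.338) and Mad2l1, a spindle checkpoint gene, at 0.01 (adjusted p = 0.985) against all low-licensing cells. Of 9 tested cohesin genes, 1 was called, Rad21, lower by -0.80 ± 0.18, while Smc1a (0.17) and Smc3 (0.20) were not. That count was near the 8.62% of all tested genes called lower. Histone genes depended on the group compared. Hist1h2ao, whose tags can match near-identical copies, was not called against all low-licensing cells (-0.17, adjusted p = 0.116). It stood at 0.47 when histone-high and mitotic-high cells were left out of them. The histone-high cells were ranked on Hist1h2ao among other genes. They were left out of the low-licensing side alone, while the 34 histone-high members stayed in, so the value of 0.47 is not a test. Hist1h1e, which was part of the same ranking, was lower by -0.77 ± 0.17 against all low-licensing cells. It stood at -0.28 (adjusted p = 0.32) against those that were neither histone-high nor mitotic-high.

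Across the whole ranking, replication genes rose with the share while mitotic genes peaked low in it. Cells were divided into those with 0 UMIs of the 12 genes (585 cells, median 1422 UMIs), the other low-licensing cells (1335), 2 middle bins of 768 cells each, and the licensing-high cells. The summed level of the nucleotide supply list, as the median of libraries, went from 2168 CPM through 2846, 3613 and 4264 to 4771 CPM. The fork list went from 1962 to 4150 CPM, again higher at each step. The mitotic list was at 9178 CPM in cells with 0 UMIs, highest at 12060.3 CPM in the other low-licensing cells and lowest at 7084 CPM in licensing-high cells. The histone list was highest in the bin from 50% to 70% of the ranking, at 2866 CPM, and stood at 1832 CPM in licensing-high cells, though library ranges overlapped between all bins. The cells with 0 UMIs were shallower than the others, and the part of depth in their values was not tested.

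**Figure D4:**
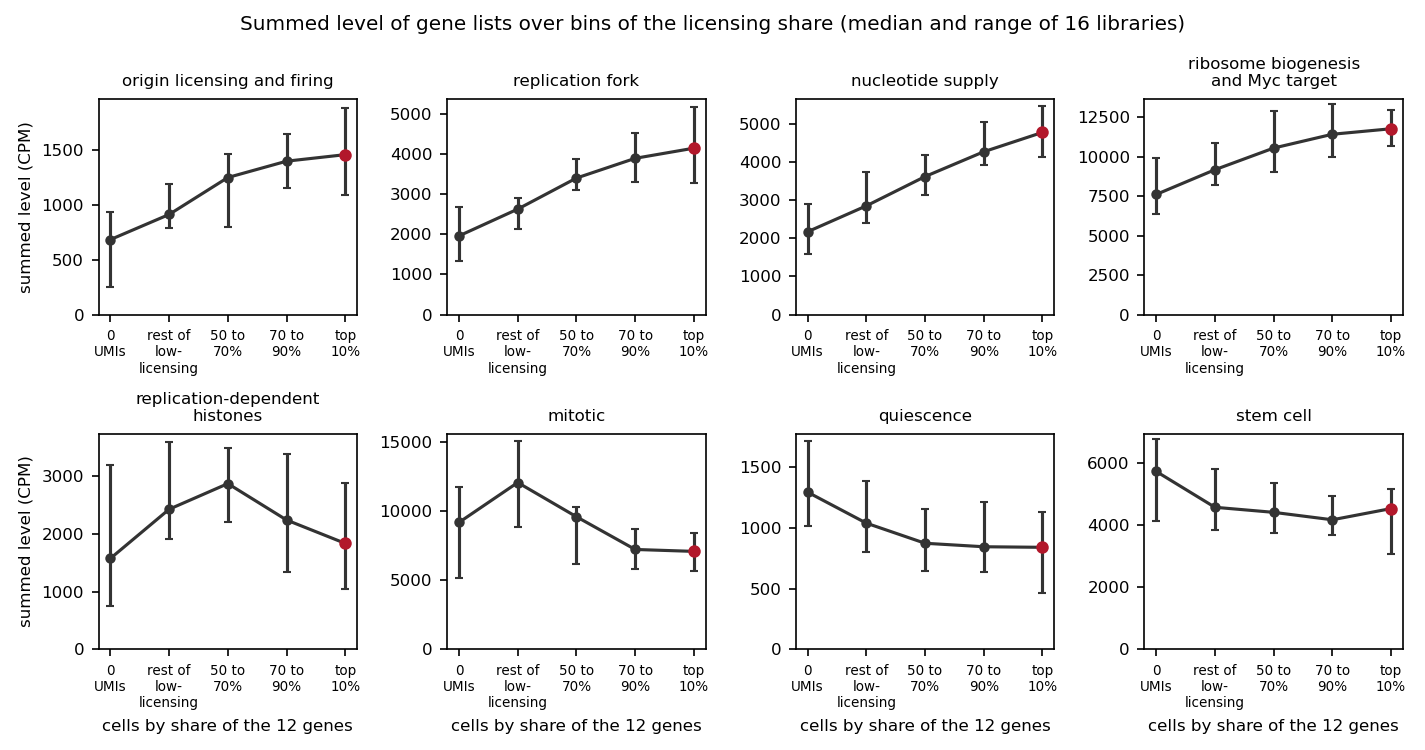
Summed level in UMIs per 1000000 (vertical axes, linear from 0) of 8 gene lists over 5 bins of the licensing share (horizontal axes), with the 12 genes left out; points are medians and bars ranges of 16 libraries, and the red point marks licensing-high cells. Nucleotide supply climbs from 2168 to 4771 CPM, and the mitotic list falls from 12060.3 CPM in the second bin to 7084 CPM.

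Members with lower and higher licensing shares were set side by side. The 192 members with the lower shares and the 192 with the higher shares had median library levels of 4185 and 4185 CPM for the fork list and 4615 and 4968 CPM for nucleotide supply. Their histone levels were 2021 and 1157 CPM, with library ranges of 646 to 4358 CPM and 238 to 4148 CPM that overlapped almost fully. Mitotic levels were 7011 and 6812 CPM. No test was made between these 2 sets.

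Many genes of ribosome biogenesis and glycolysis were higher in licensing-high cells. Of 29 tested genes of ribosome biogenesis and Myc targets, 20 were higher and 0 lower, with a median of 0.41. Srm, spermidine synthase, stood at 116, 280 and 396 CPM against 94.1, 145 and 266 CPM (0.82 ± 0.14). Dkc1 (0.70), of the small nucleolar ribonucleoproteins, Ranbp1 (0.65), of nuclear transport, and Pa2g4 (0.63) were higher, each in 14 of 16 libraries. Nucleophosmin, Npm1, the most abundant of the list, was not called (0.05, adjusted p = 0.545). Of 8 tested glycolysis genes 4 were higher and 0 lower. Ldha, lactate dehydrogenase A, had 494 to 846 CPM against 267 to 500 CPM and was higher in 16 of 16 libraries (0.77 ± 0.08, adjusted p = 2.42e-13), and Pgam1 (0.51), Pgk1 (0.46) and Pkm (0.37) followed, the call of Pgk1 being lost without library 4 (adjusted p = 0.0507) or 10 (0.0599). Of 49 tested nuclear genes of the respiratory chain, 7 were higher and 2 lower, with a median of 0.09, so the count was near the 10.9% of all tested genes called higher. Atp5c1 (0.35), Uqcrb (0.40) and Ndufab1 (0.52) were among the higher ones and Ndufa6 (-0.31) was lower, a call lost without library 4 (adjusted p = 0.0615).

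Genes of quiescence, of the interferon response and of MHC class I were lower or not called. Of 6 tested quiescence genes, 3 were lower and 0 higher: Txnip, a thioredoxin inhibitor, at 0, 82.7 and 156 CPM against 99.1, 141 and 172 CPM (-0.71 ± 0.20, adjusted p = 0.00475), and the forkhead factor genes Foxo3 (-0.81) and Foxp1 (-0.51). Of 21 tested interferon and MHC class I genes, 10 were lower and 0 higher, with a median of -0.25. H2-K1, a class I heavy chain gene with close relatives, stood at 915, 1006 and 1307 CPM against 1011, 1352 and 1602 CPM and was lower in 16 of 16 libraries (-0.42 ± 0.06, adjusted p = 1.30e-09). B2m, the class I light chain, was lower by -0.27 ± 0.04, and the interferon-induced Ifi27l2a and Rtp4 by -1.02 and -0.93. Ly6e (-0.13, adjusted p = 0.135) and Psmb8 (0.06, adjusted p = 0.691) were not called.

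Stem cell and lineage genes differed less. Of 15 tested stem cell genes 2 were lower, Ifitm1 (-0.34) and Gimap6 (-0.57), and Cd34 (-0.16, adjusted p = 0.164) and Adgrg1 (-0.08, adjusted p = 0.469) were not called. Of 11 tested lymphoid genes 3 were lower. Dntt, the terminal transferase of lymphoid progenitors, had 30.5 to 671 CPM against 142 to 838 CPM (-0.60 ± 0.12), and Satb1 (-0.64) and Ighm (-0.46) were the others. Of 11 myeloid genes Nkg7 was higher (0.51) and Mpo lower (-0.28), and of 8 megakaryocyte and erythroid genes Car2 (-0.39) and Lmo2 (-0.24) were lower. Over all 2251 tested genes 10.9% were called higher and 8.62% lower, and the stem cell and myeloid counts were near those shares. The calls of Foxp1, Gimap6, Mpo and Lmo2 were marginal, each lost when 1 of several libraries was left out: without library 1 the adjusted p was 0.0805 for Foxp1, 0.0699 for Gimap6 and 0.0902 for Mpo, and without library 12 it was 0.142 for Lmo2. Of the Regnase and target list, 2 genes could be tested, Nfkb1 (-0.31, adjusted p = 0.262) and Gata2 (-0.27, adjusted p = 0.460), and neither was called. Nfkbiz had 12 UMIs in licensing-high cells, 11 of them in replicates 9 to 16.

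Counted as cells, the same programmes were spread unevenly over the classes. For each of 6 lists the top 10% of kept cells by share of UMIs were marked, and their percentage among licensing-high and low-licensing cells was compared over the 16 libraries; these tests were added after the data had been seen. Cells high in interferon and MHC class I genes made up 3.12% of licensing-high cells (12 cells) and 14.1% of low-licensing cells, lower in 15 of 16 libraries (exact paired permutation test, adjusted p = 0.000549). Stem cell-high cells made up 7.55% against 12.8%, lower in 12 of 16 libraries (exact permutation, adjusted p = 0.0187), and lymphoid-high cells 7.03% against 11.04%, lower in 12 (exact permutation, adjusted p = 0.0364). The summed stem cell list was highest, at a library median of 5725 CPM, in the shallower cells with 0 UMIs of the 12 genes. It stood at 4571 CPM in the other low-licensing cells, 4409 and 4169 CPM in the middle bins and 4530 CPM in licensing-high cells. The part of depth in the percentages given here was not tested. Cells high in ribosome biogenesis made up 17.7% against 5.16%, higher in 14 of 16 (exact permutation, adjusted p = 0.000549). For myeloid-high cells (10.9% against 9.64%, exact permutation, adjusted p = 0.548) and for megakaryocyte and erythroid-high cells (9.38% against 10.7%, exact permutation, adjusted p = 0.114) the difference was within the spread between libraries.

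Compared with histone-high cells, the licensing-high cells were lower in mitotic genes, and few fork or nucleotide genes were called. Cells in both classes were left out, and 15 libraries had enough cells. Being mitotic-high did not exclude a cell here, nor did being histone-high in the comparison with mitotic-high cells below. Of the 384 histone-high cells 70 were also mitotic-high, 1 of them licensing-high as well, while 3 of the 384 licensing-high cells were mitotic-high. The part of this overlap in the values was not tested. Of 843 genes tested, 36 (4.27%) were higher and 54 (6.41%) lower in licensing-high cells. Of 10 tested mitotic genes 9 were lower (median -1.01). Mki67, the proliferation marker, stood at 27.6, 111 and 350 CPM against 371, 539 and 991 CPM, ranges that did not overlap (-1.94 ± 0.15, adjusted p = 3.63e-19). Top2a, topoisomerase II, had 229 to 504 CPM against 558 to 1011 CPM (-1.32 ± 0.10), and Hmgb2, a chromatin protein, 304 to 734 CPM against 881 to 1552 CPM (-1.34 ± 0.09). H2afx (-1.53), Cdk1 (-1.38), Ccna2 (-1.31) and Smc4 (-1.16) were lower as well. Of 7 tested genes of the nucleotide supply list, 0 were higher and 1 lower, and of 5 fork genes 1 was higher. The lower one was Tmpo (-0.51, adjusted p = 0.00905), which does not encode a nucleotide enzyme. Dctpp1, outside that list, was higher (0.48, adjusted p = 0.034). A miss of the threshold does not show that the classes are equal. Higher in licensing-high cells were Igfbp4 (0.85), Cdca7 (0.79), Taldo1 (0.68), Myc (0.68), Srm (0.60), Ldha (0.56) and Plac8 (0.54). Myc itself stood at 148, 275 and 483 CPM against 17.8, 162 and 252 CPM (adjusted p = 0.00991). Not all of these also differed from low-licensing cells without histone-high and mitotic-high cells: there Myc stood at 0.04 (adjusted p = 0.847) and Taldo1 at 0.21 (adjusted p = 0.256), and Plac8 was lower by -0.21 (adjusted p = 0.00276).

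Compared with mitotic-high cells, 126 of 948 genes (13.3%) were higher in licensing-high cells and 117 (12.3%) lower, over 15 libraries. Lig1 had 144 to 378 CPM against 0 to 124 CPM, without overlap (1.82 ± 0.21, adjusted p = 1.96e-11). Cdca7 (1.40), Syce2 (1.37), Nasp (1.31), Mif (1.27) and Dut (1.26) were higher too. Of 20 tested genes of ribosome biogenesis and Myc targets 17 were higher and 0 lower. Against histone-high cells, 2 of 20 tested genes of that list were higher and 0 lower, with a median of 0.19. Of 7 nucleotide supply genes 5 were higher and 1 lower against mitotic-high cells. Lower in licensing-high cells were Lockd (-2.40), a noncoding RNA next to a cyclin-dependent kinase inhibitor gene, H2afx (-1.89), Jpt1 (-1.83), Ccna2 (-1.66), Rad21 (-1.50), Dntt (-1.34) and Hist1h1e (-1.23). Of 10 tested interferon and MHC class I genes 7 were lower, and of 8 lymphoid genes 4 were lower and 1 higher. Against histone-high cells, 2 of 9 tested interferon and MHC class I genes were lower and 0 higher. Of 5 tested lymphoid genes 0 were lower and 1 higher there.

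**Figure D5:**
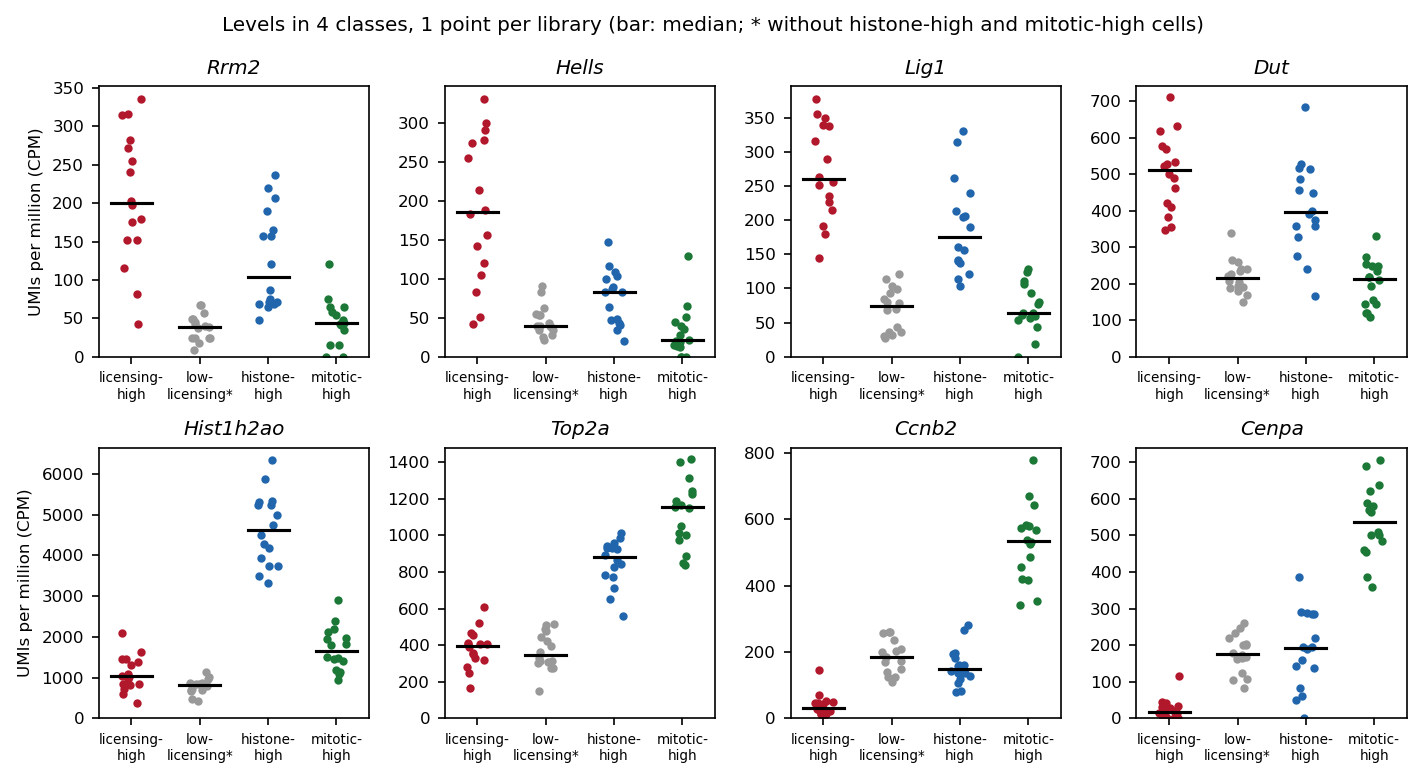
Levels of 8 genes in UMIs per 1000000 (vertical axes, linear from 0) in licensing-high cells, low-licensing cells without histone-high and mitotic-high cells, histone-high and mitotic-high cells, with 1 point per library and a bar at the median. Rrm2, Hells, Lig1 and Dut have their highest median in licensing-high cells, Hist1h2ao in histone-high cells, and Top2a, Ccnb2 and Cenpa in mitotic-high cells.

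Set side by side over the 4 groups plotted, the median of Rrm2 was 200 CPM in licensing-high, 104 in histone-high, 44.0 in mitotic-high and 39.4 in the remaining low-licensing cells. Among the plotted replication genes, Lig1 was called higher than in histone-high cells (0.51, adjusted p = 0.0428) and Dut was not (0.21, adjusted p = 0.312). Rrm2 and Hells were not tested against histone-high cells. Hist1h2ao had 1027 CPM in licensing-high cells, 4618 in histone-high, 1656 in mitotic-high and 824.5 in the remaining low-licensing cells. Cenpa had 18.2 CPM in licensing-high cells, 192 in histone-high, 537 in mitotic-high and 176 in the remaining low-licensing cells, so that licensing-high cells were the lowest of the 4 groups for it. The histone-high and mitotic-high classes were chosen on Hist1h2ao and on Ccnb2, Cenpa and Top2a, and their levels there describe that choice.

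The difference between the classes was not found to depend on the sequencing batch, while expression levels as such were not tested between batches. A test of whether the licensing-high against low-licensing difference differed between batches called 0 of 2252 genes over 15 libraries (edgeR, smallest adjusted p = 0.133), with 99 at an unadjusted p under 0.05. Within batch SB341 alone 263 genes were called and within SB343 146, on 9 and 6 libraries.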

How the data were processed

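RNA of single LSK cells was counted in 16 MARS-seq libraries of 384 wells. The authors deposited UMI counts per gene and well, not normalized, and a well table whose other values (sequencing batch, cells per well) covered 5760 wells of 15 libraries. The build mm10 and bcl2fastq 2.15.0.4 are named by the submitters' processing notes. No aligner, counter, annotation or use of strand is named in the sources used here, and UMIs of overlapping genes and of near-identical copies (Tuba1c, Hist1h2ao, H2-K1 and Hbb-bt among those named) are uncertain.

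Wells were kept when they were not listed as empty, held at least 1000 UMIs without spike-ins and had under 20% mitochondrial UMIs. Library 1 has no entry in the well table, so the last pair of criteria alone applied and its cells per well are unknown. Wells were listed with at most 1 cell and no doublet caller was run. The 60 empty wells held 801 UMIs and 0 of the 12 genes, and no well name was shared between libraries. Only 12 spike-in UMIs were found in all wells, so a planned measure of UMIs per spike-in was not made. The kept cells' libraries held 521435 to 822534 UMIs over all wells.

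Class sums of UMIs were made in each library that had at least 10 cells of both classes. The 12 genes were left out of these sums. The test was that of edgeR 4.0.16 under R 4.3.3 (TMM factors, filterByExpr, quasi-likelihood F test, library as a block, Benjamini-Hochberg adjustment at 0.05), and the procedure was tested on simulated data. Both sums of a pair are from the same plate, which is what pairs them. Fold changes are log2, with standard errors; CPM are UMIs per 1000000 of a library's class sum. Cell measures were compared by exact paired permutation over libraries with SciPy 1.17.1. Thinning drew 1000 UMIs per cell. DESeq2 1.42.0 and other filters, minima, class sizes, rankings and library sets were alternatives.

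The members, 26 gene lists and tests were chosen with earlier results of these data known. Genes named are the 12; among called genes with the same sign in all but 2 libraries and a usual symbol, the 15 highest and 15 lowest (8 and 8 for the other comparisons); and from each list the 4 called with the smallest p and the 2 most abundant not called, shown in part; a few are not reported here. Nfkbiz, Kit, Ly6a and the markers of other cells were added to check libraries and label.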

Additional observations from a re-analysis of the deposited data

How the results depend on the processing

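Between licensing-high and low-licensing cells 440 genes of 2251 were called (246 higher, 194 lower). Other settings, each over its own set of tested genes, called 1080 of 20540 with no filter on low counts (97 higher and 983 lower, with the median of all genes at -0.36), 223 with at least 2000 UMIs per cell, 185 with the top 5%, 797 of 3241 with the top 20%, 88 (of 631 tested) in cells thinned to 1000 UMIs, 132 (of 990 tested) with ranking and summing on separate random sets of UMIs, 263 within batch SB341, 146 within SB343 and 219 against all other cells. Thinned, split and deep-cell settings tested fewer genes or libraries; the cause of the other changes was not tested. Leaving out 1 library at a time gave 375 to 448, and 291 to 382 where histone-high and mitotic-high cells were left out (345 with all libraries). DESeq2 called 385 and a fit with no library block 325 (194 higher, 131 lower). Against histone-high cells the 90 calls became 48 with DESeq2, 35 with at least 2000 UMIs, 19 thinned, 47 within SB341 and 27 within SB343. Against mitotic-high cells the 243 became 152, 74, 28, 146 and 97 in the same order. Of the left-out licensing genes 4 of 4 tested were called after thinning. The difference in UMIs per cell, 164.5 in the main comparison, was 291.81 when cells were ranked after thinning (exact permutation, adjusted p = 0.0103) and 222.06 without histone-high and mitotic-high cells (exact permutation, adjusted p = 0.0117). The median share per library was 5.05% for the top 5% and 20.2% for the top 20%, as those settings require. Single genes changed sign: Npm1 (-0.25) and mt-Nd1 (-0.23) with no filter, Mpo with the top 20% (0.0333) and with split UMIs (0.00682), and Car2 thinned (0.0471). Hist1h2ao did so (0.47) when histone-high and mitotic-high cells were left out of the low-licensing group alone. Calls of Foxp1, Gimap6, Mpo, Lmo2, mt-Nd5, Pgk1 and Ndufa6 were lost without one or another library, and Cd52, Top1, Tpi1, Hist1h2ao and Mybbp1a gained one. Depth limits the lists: 3 of 25 licensing genes, 6 of 31 quiescence genes and 2 of 30 Regnase and target genes could be tested. No paired analysis across groups was possible because the labels put all libraries in 1 group; the library was the block in every comparison of classes but the one named.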
